A study of Mus musculus with 6 samples.

Results

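The 8 transcription factors examined here set the positions of areas in the embryonic neocortex, and they were measured by bulk RNA-Seq in the lateral cortex of 6 female mouse embryos at embryonic day (E)12.5. They are Emx1, Emx2, Nr2f1 (COUP-TFI), Nr2f2 (COUP-TFII), Sp8, Dmrta2 (Dmrt5), Dmrt3 and Lhx2, chosen by name for their role, and each of the 8 was among the 17068 genes of the deposited count table. The 4 controls were Cre negative, with the genotype Foxp1 fl/+ in controls 1, 2 and 4 and Foxp1 fl/fl in control 3. The other 2 embryos were Foxp1 fl/fl;Emx1Cre and are labelled Foxp1cKO. All 6 were on a c57/bl6 background and carried at least 1 floxed Foxp1 allele, and each is taken as its own sample. In this design Cre acts in cells of the Emx1 lineage, the progenitors of the dorsal telencephalon and their progeny, so vessels, microglia and ventrally born cells in the same tissue keep Foxp1. Because Emx1 is at once a gene of interest and the source of the driver, it is relevant that the sources used here do not say whether Cre replaced part of the Emx1 locus, and whole-gene counts cannot tell its alleles apart.

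During corticogenesis, signaling centers at the edges of the cortical sheet release Fgfs, Wnts and Bmps, and progenitors translate these signals into graded expression of transcription factors. Emx2, Dmrta2, Dmrt3 and Lhx2 are highest toward the caudal and medial cortex near the hem, and Emx2 promotes the identity of caudal areas. Nr2f1 forms an opposite lateral to medial component, high in caudolateral cortex, where it represses frontal and motor identity, and Nr2f2 is high at the caudal and ventrolateral margins and in interneurons from the caudal ganglionic eminence. Sp8 is high in rostromedial progenitors, where it acts with Fgf signaling on frontal identity. In bulk tissue, fewer cells of a type and less RNA per cell cannot be told apart.

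Windows at the starts of 3 members are shown as examples. Each lies close to a noncoding gene that is transcribed from the opposite strand and that was counted in the same libraries. The start of Nr2f1 also lies close to such a gene, and its window is not shown. The windows are those given by RefSeq on GRCm38.p6, 300 bases in the direction of the gene, and all 8 members had an entry. Sp8 had 3 such windows and Nr2f1 and Lhx2 had 2 each. Only the most upstream window of each member was examined. Capitals mark the GC box (GGGCGG, or CCGCCC on the other strand) and the forkhead core (TGTTTA, or TAAACA), the latter because Foxp1 is a forkhead factor. Emx2 lies at chr19:59458440-59458739 on the plus strand, Dmrta2 at chr4:109977775-109978074 on the plus strand and Nr2f2 at chr7:70366697-70366996 on the minus strand.
Emx2: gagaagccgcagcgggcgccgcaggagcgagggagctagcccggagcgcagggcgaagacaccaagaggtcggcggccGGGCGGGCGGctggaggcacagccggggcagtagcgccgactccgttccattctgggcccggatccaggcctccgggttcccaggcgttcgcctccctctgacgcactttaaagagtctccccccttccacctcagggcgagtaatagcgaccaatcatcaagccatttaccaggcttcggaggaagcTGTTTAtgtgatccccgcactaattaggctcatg
Dmrta2: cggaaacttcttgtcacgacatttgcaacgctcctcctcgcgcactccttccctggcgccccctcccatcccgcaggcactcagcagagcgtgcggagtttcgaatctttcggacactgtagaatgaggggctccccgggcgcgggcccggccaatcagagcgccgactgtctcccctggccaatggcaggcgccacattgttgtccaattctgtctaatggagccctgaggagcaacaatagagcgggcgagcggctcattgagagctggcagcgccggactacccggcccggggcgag
Nr2f2: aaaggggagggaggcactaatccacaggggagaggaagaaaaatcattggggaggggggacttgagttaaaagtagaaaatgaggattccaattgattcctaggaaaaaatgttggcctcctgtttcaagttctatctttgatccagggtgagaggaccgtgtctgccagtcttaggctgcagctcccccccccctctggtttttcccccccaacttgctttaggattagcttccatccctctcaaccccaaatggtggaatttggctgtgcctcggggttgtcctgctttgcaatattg
The Emx2 window held 2 overlapping GC boxes and 1 forkhead core, while neither motif occurred in the Dmrta2 and Nr2f2 windows. It also held 1 homeodomain core (TAATTA, a palindrome). The start that GENCODE M21 gives for Emx2 (59458372) lies upstream of this RefSeq window. Those it gives for Emx1 (85187438) and Nr2f1 (78199757) also lie upstream of the windows examined for them. By GENCODE M21, Emx2os starts within the Emx2 window, 263 bases downstream of the annotated start of Emx2, and Dmrta2os starts within the Dmrta2 window, 240 bases upstream of the start of Dmrta2. B130024G19Rik starts 1825 bases downstream of the annotated start of Nr2f2, and A830082K12Rik starts 1740 bases downstream of that of Nr2f1, both outside the windows.

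Among all 8 members, a GC box was present in 4 windows (Emx1, Emx2, Nr2f1 and Lhx2), against 35.7% of 32851 mouse promoters, and the forkhead core was present in 1, against 13.4%. The nuclear receptor half-site (AGGTCA, or TGACCT), which Nr2f factors bind in pairs, was present in 0 windows, against 16.3% of promoters. Of these windows that of Sp8, the most upstream of its 3, alone held the letters ACGTG (or CACGT). They are the core of the Hif response element, which 19.6% of promoters hold. The same window alone held the TATA box (TATAAA, or TTTATA), which 13.6% hold. CpG dinucleotides numbered 15 to 37 in 6 of the windows and 2 in those of Nr2f2 and Sp8, against a median of 7 over all promoters. Such matches describe these windows and are not evidence of binding.

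Libraries held 50076008 to 78346979 counts on genes, and the members had from 535 (Dmrt3, control 3) to 48346 (Lhx2, control 4) counts, so that counting error was small beside the spread between embryos. Foxp1 itself, the targeted gene, was at 83.2 and 76.8 CPM (counts scaled to a common library size with edgeR's TMM factors) in the libraries labelled Foxp1cKO. These whole-gene counts were thus not lower than in the controls, at 59.7 to 79.1 CPM, so the groups are named by their labels throughout. Exons were not counted apart, so loss of part of the transcript was not tested. The paper cites its authors' earlier work for Cre recombination and loss of Foxp1 protein before E12.5. Control 3 stood apart in its regional makeup. It was also the only Foxp1 fl/fl control, so genotype and tissue makeup cannot be told apart in this library. The summed level of 10 ventral telencephalon and interneuron markers was 857 CPM in control 3 and 235 to 363 CPM in the other controls, with 529 and 392 CPM in the libraries labelled Foxp1cKO. Nkx2-1, a defining gene of the medial ganglionic eminence, was at 13.2 CPM there and at 0.22 to 0.60 CPM in the other controls. Control 4 had the lowest sum of 8 neuron markers (1904 CPM, against 2896 to 3867 CPM in the other controls), and its 8 red cell markers (3429 CPM) were close to those of the libraries labelled Foxp1cKO (3760 and 4021 CPM) and above the other controls (1090 to 1436 CPM). The 5 mural cell markers summed to 111 and 116 CPM in the libraries labelled Foxp1cKO and to 68.2 to 88.3 CPM in the controls. All 5 had a positive log2 fold change, 3 had an unadjusted p under 0.05 (13% of all genes) and 3 lay outside the control range (24.6%). Of these 5 markers, edgeR called 0 (0.152% of all genes) and DESeq2 called 1 (3.36% of the genes it tested). The 9 measured radial glia markers summed to 2417 to 2882 CPM, a sum carried mostly by Vim and Nes. Single markers differed more, in both directions. Of the 9, 3 had an unadjusted p under 0.05 (13% of all genes) and 0 were called by edgeR (0.152% of all genes). Notch1 was at 288 to 318 CPM in the controls and at 441 and 402 CPM in the libraries labelled Foxp1cKO (adjusted p = 0.152 by edgeR and 9.16e-05 by DESeq2), Slc1a3 had a log2 fold change of 0.37 (adjusted p = 0.296) and Fabp7 one of -0.43 (adjusted p = 0.377). Cortical identity was present in each, with the pallial neuron factor Tbr1 between 251 and 490 CPM. The 5 measured markers of the cortical hem and choroid plexus summed to 1.48 CPM (control 3) to 9.22 CPM (control 2), and the amount of hem tissue was not measured. The sum of control 2 was carried mostly by Rspo1, at 5.20 CPM there and at 0.11 to 0.43 CPM in the other controls.

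No difference between the labelled groups was detected for any of the 8 members. In edgeR's quasi-likelihood test, adjusted over all genes by the Benjamini-Hochberg method, 0 of 8 passed an adjusted p of 0.05, on a background of 0.152% of all 17068 genes, and adjusted p-values ran from 0.834 to 0.99. At an unadjusted p under 0.05 the count was also 0 of 8, where 13% of all genes passed, and DESeq2 called 0 of 8, where it called 3.36% of the genes it tested. Of the log2 fold changes, 4 were positive and 4 negative, with a median of 0.044 (over all genes -0.0044). The groups overlapped for all 8 members, whereas both libraries labelled Foxp1cKO lay outside the range of the controls for 24.6% of all genes. For each of the 8, the controls alone spanned a wider fold than the difference between the groups. This sets single libraries against group means, and its share over all genes was not counted, so it is not evidence of no difference. The intervals are wide, since 2 libraries make up 1 group. The narrowest, that of Nr2f1, ran from -0.55 to 0.50 on the log2 scale and the widest, that of Nr2f2, from -1.29 to 2.10, so differences of these sizes are not excluded.

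**Figure D1:**
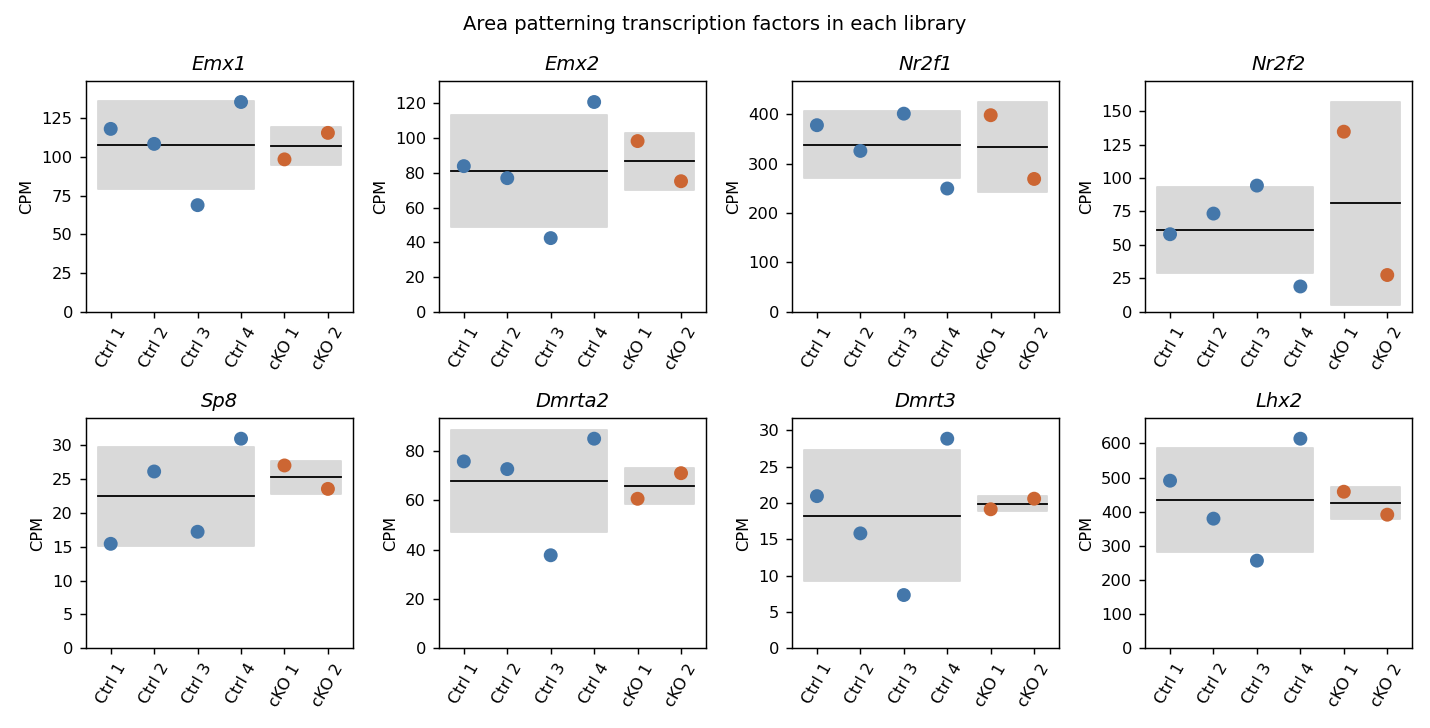
Level of each member in the 6 libraries (y axis, CPM, starting at 0; x axis, the 4 control and 2 Foxp1cKO libraries). Blue points are controls and orange points are libraries labelled Foxp1cKO, lines are group means and grey bands are 1 SD. The groups overlap in every panel, and control 4 is the highest or lowest control in each.

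Emx1 and Emx2 encode homeodomain factors of the dorsal telencephalon, Emx1 spread over the pallium and Emx2 graded. Emx1 (chromosome 6, 85187438 to 85204462, plus strand) was at 118, 108, 68.8 and 135 CPM in controls 1 to 4 and at 98.4 and 116 CPM in the libraries labelled Foxp1cKO 1 and 2. Both of the latter lay inside the control range, and the group means were 107.7 ± 28.2 (SD, n = 4) and 107 ± 12.1 CPM (n = 2). Its log2 fold change was -0.0097 (SE 0.244, 95% interval -0.59 to 0.57, adjusted p = 0.99, edgeR), so Emx1 counts were level between embryos with and without the Cre allele to within that interval. Without control 3 the value was -0.19 and without control 4 it was 0.12. Emx2 (chromosome 19, 59458372 to 59465357, plus strand) was at 83.8, 76.9, 42.4 and 121 CPM in the controls and at 98.3 and 75.2 CPM in the libraries labelled Foxp1cKO. Again control 3 was the lowest library and control 4 the highest. The difference in Emx2 was 0.098 (SE 0.358, interval -0.75 to 0.94, adjusted p = 0.934). It was -0.13 without control 3 and 0.36 without control 4.

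The Dmrt factors carry a DM domain and act downstream of Wnt signaling from the hem. Dmrta2 (chromosome 4, 109978053 to 109983687, plus strand) was at 75.8, 72.7, 37.7 and 85.0 CPM in the controls and at 60.6 and 71.0 CPM in the libraries labelled Foxp1cKO. Dmrt3 (chromosome 19, 25610301 to 25623921, plus strand) was at 20.9, 15.8, 7.34 and 28.8 CPM in the controls and at 19.1 and 20.6 CPM in the libraries labelled Foxp1cKO. For both genes control 3 was lowest and control 4 highest, with a 2.25-fold span in controls for Dmrta2 and a 3.93-fold span for Dmrt3, and the Foxp1cKO values sat between the extremes. The log2 fold change was -0.042 (SE 0.294, interval -0.74 to 0.65, adjusted p = 0.969) for Dmrta2. It was 0.12 (SE 0.455, interval -0.95 to 1.2, adjusted p = 0.935) for Dmrt3. Leaving out control 3 moved the values to -0.25 and -0.15, and leaving out control 4 moved them to 0.086 and 0.44.

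Lhx2 encodes a LIM homeodomain factor that gives progenitors cortical rather than hem identity. Lhx2 (chromosome 2, 38339281 to 38369733, plus strand) was at 491, 380, 257 and 614 CPM in the controls and at 459 and 392 CPM in the libraries labelled Foxp1cKO. It followed the order of the Emx and Dmrt genes, with control 3 lowest and control 4 highest. The log2 fold change was -0.035 (SE 0.310, interval -0.77 to 0.70, adjusted p = 0.976), and it was -0.23 without control 3 and 0.18 without control 4.

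Nr2f1 and Nr2f2 encode orphan nuclear receptors. Nr2f1 (chromosome 13, 78188973 to 78199757, minus strand) was at 378, 326, 401 and 250 CPM in the controls and at 398 and 269 CPM in the libraries labelled Foxp1cKO. Its extremes were those of Emx2 turned around, with control 3 the highest library and control 4 the lowest. The log2 fold change was -0.022 (SE 0.223, interval -0.55 to 0.50, adjusted p = 0.978), and it was 0.055 without control 3 and -0.14 without control 4. It was -0.33 without Foxp1cKO 1 and 0.21 without Foxp1cKO 2, so its direction rested on single libraries. Nr2f2 (chromosome 7, 70351944 to 70366735, minus strand) was at 58.0, 73.4, 94.3 and 18.9 CPM in the controls and at 135 and 27.4 CPM in the libraries labelled Foxp1cKO. The libraries of each group lay far apart, spanning 5.0-fold in the controls and 4.91-fold in the Foxp1cKO pair, and the library labelled Foxp1cKO 1 was above every control while Foxp1cKO 2 was above control 4 alone. The log2 fold change of 0.41 (SE 0.717, interval -1.29 to 2.10, adjusted p = 0.847) had a direction set by 1 library, since it was -1.16 without Foxp1cKO 1 and 1.12 without Foxp1cKO 2.

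Sp8 encodes a zinc finger factor of the Sp family. Sp8 (chromosome 12, 118846329 to 118852576, plus strand) was at 15.4, 26.1, 17.2 and 30.9 CPM in the controls and at 26.9 and 23.5 CPM in the libraries labelled Foxp1cKO. Control 4 was again the highest, but the lowest was control 1, followed by control 3, and the Foxp1cKO values fell within the controls. Its log2 fold change was 0.17 (SE 0.283, interval -0.50 to 0.84, adjusted p = 0.834). It was 0.013 without control 1 and 0.37 without control 4.

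**Figure D2:**
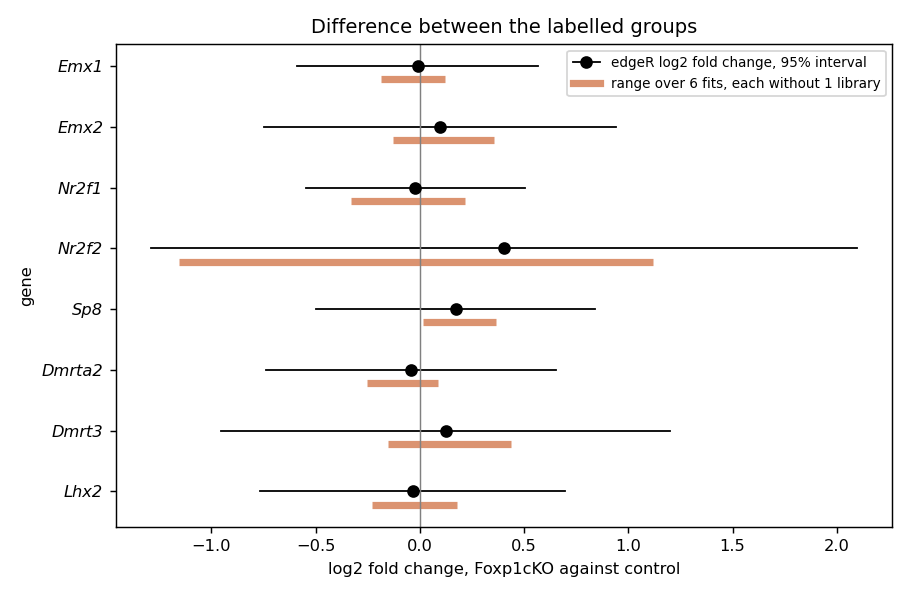
Log2 fold change of each member in the Foxp1cKO against the control libraries (x axis, 0 is no difference; y axis, genes). Points and black lines are edgeR estimates with 95% intervals, and orange bars are the range of 6 fits that each left out 1 library. Every interval covers 0, and the orange bar crosses 0 for each member except Sp8.

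For 5 of the 8 members the controls fell in 1 order. Emx1, Emx2, Dmrta2, Dmrt3 and Lhx2 each decreased from control 4 through controls 1 and 2 to control 3, with control 4 the highest and control 3 the lowest of all 6 libraries. Sp8 had another order, with controls 4 and 2 above controls 3 and 1. Relative to its mean over the 6 libraries, Emx2 was 0.90 lower on the log2 scale in control 3 and 0.61 higher in control 4, and Dmrt3 was 1.24 lower and 0.73 higher. Nr2f1 deviated the other way, 0.28 higher in control 3 and 0.41 lower in control 4, as did Nr2f2, 0.78 higher and 1.54 lower. The SD of log2 CPM among the controls placed the members between the 80.8th percentile (Nr2f1) and the 99.3rd percentile (Nr2f2) of 12685 genes with a mean log2 CPM of at least 1. Beside this, the ventral telencephalon and interneuron markers were highest in control 3, and the neuron markers were highest in control 3 and lowest in control 4, while the markers of the hem and choroid plexus (1.35 lower on the log2 scale than their mean over the libraries), of meninges and fibroblasts (1.34 lower) and of microglia (0.49 lower) were each lowest in control 3. The radial glia sum moved in the same direction as the Emx genes but by less (0.17 lower and 0.087 higher). Relative to the summed CPM of the radial glia markers, a scale added after the values were seen, Emx2 still spanned 2.39-fold among the controls, Dmrt3 3.29-fold and Lhx2 2.00-fold, with the same highest and lowest libraries. The part that these cell types, or the Foxp1 fl/fl genotype of control 3, had in this spread was not tested.

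**Figure D3:**
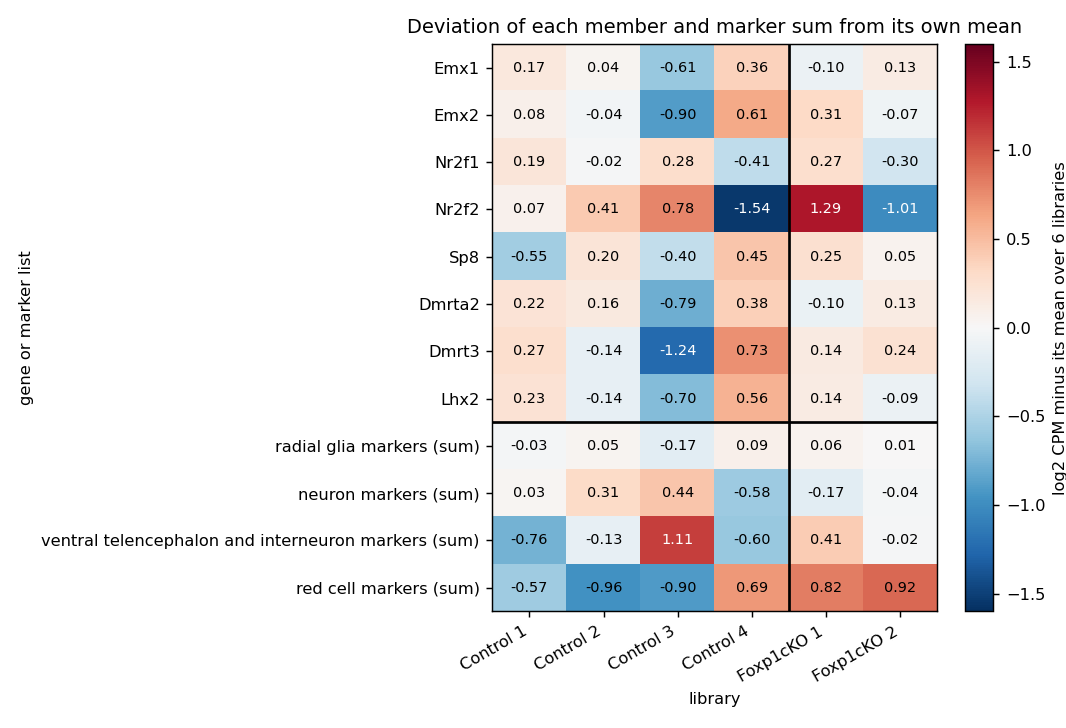
Deviation of each member and of 4 marker sums (rows) in each library (columns) from its own mean over the 6 libraries, in log2 CPM, with red higher and blue lower. Control 3 is low and control 4 high for Emx1, Emx2, Dmrta2, Dmrt3 and Lhx2, Nr2f1 and Nr2f2 deviate the other way in these controls, and the ventral markers are highest in control 3.

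Levels were compared between members per length, as CPM per kilobase of annotated exon (FPKM). In the controls Lhx2 was the most abundant at 99.1 ± 34.7 FPKM, followed by Nr2f1 (66.5 ± 13.2), Emx1 (49.3 ± 12.9), Emx2 (27.0 ± 10.7), Dmrta2 (23.2 ± 7.08), Dmrt3 (7.46 ± 3.69), Nr2f2 (7.09 ± 3.70) and Sp8 (4.91 ± 1.61; SD, n = 4 for each). The step from Dmrta2 to Dmrt3 separated all 4 controls of the one from all 4 of the other, and the remaining neighbors in this order overlapped. Within each control Emx1 exceeded Emx2, by 0.92 ± 0.22 on the log2 scale. The libraries labelled Foxp1cKO had the same order except that Nr2f2 (9.40 ± 8.79 FPKM, SD, n = 2) came before Dmrt3 (8.12 ± 0.42). This rested on Foxp1cKO 1, since Nr2f2 was at 15.6 FPKM there and at 3.18 FPKM in Foxp1cKO 2, below Dmrt3 (8.42) and Sp8 (5.15). The pair also changed places when the longest annotated transcript served as the length. Within the Nr2f pair, Nr2f1 exceeded Nr2f2 in all 6 libraries, by 2.32 (Foxp1cKO 1) to 4.48 (control 4) on the log2 scale.

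**Figure D4:**
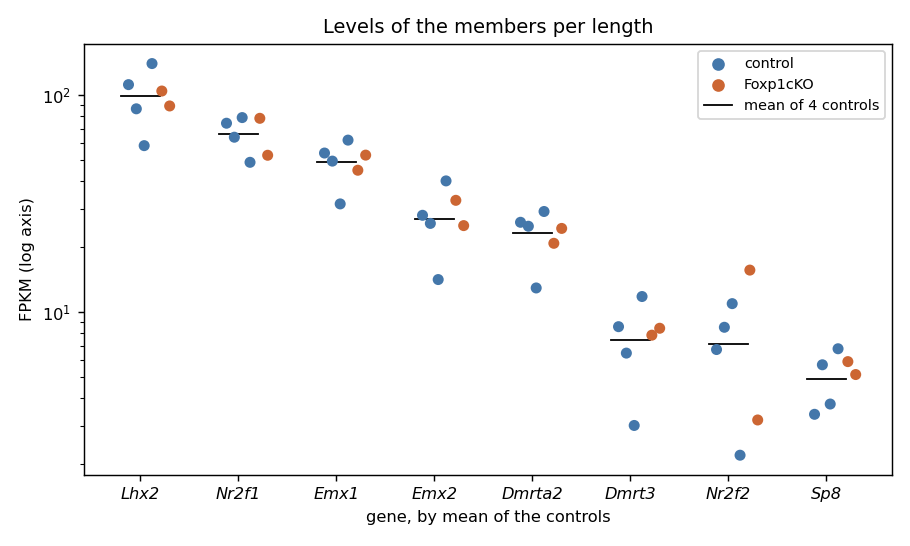
Level per length of the members (y axis, FPKM on a log axis; x axis, genes by the mean of the controls). Blue points are the 4 controls, orange points the 2 libraries labelled Foxp1cKO and lines the control means, from 99.1 FPKM for Lhx2 to 4.91 FPKM for Sp8.

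Because opposing factors are thought to set areal position by their balance, 6 ratios within a library were compared between the groups, on the log2 scale of FPKM. The caudal to rostral ratio of Emx2 to Sp8 was 3.05, 2.16, 1.91 and 2.57 in controls 1 to 4 and 2.47 and 2.28 in the libraries labelled Foxp1cKO. The ratio of Nr2f1 to Sp8 was 4.46, 3.48, 4.39 and 2.85 in the controls and 3.73 and 3.36 in the libraries labelled Foxp1cKO. Both ratios had overlapping groups, with differences of -0.047 and -0.25. The other 4 ratios (Emx1 to Emx2, Nr2f1 to Nr2f2, Dmrta2 to Dmrt3 and Lhx2 to Emx2) differed by -0.27 to -0.15. None of the 6 passed the two-sided exact permutation test (p from 0.4 to 1, adjusted p = 1 for each over the 6), and 4 libraries against 2 cannot give a p below 0.133. Lhx2 to Emx2 was the steadiest ratio in the controls (1.90 ± 0.15), against 0.76 for the SD of Nr2f1 to Nr2f2 and 0.77 for that of Nr2f1 to Sp8.

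Several members share their locus with a transcript on the opposite strand, and several of these had the same extreme libraries as the member, while others did not. B130024G19Rik, at the Nr2f2 locus, was at 4.36, 7.03, 10.2 and 1.5 CPM in the controls and at 18.0 and 2.77 CPM in the libraries labelled Foxp1cKO. The 6 libraries fell in the same order as for Nr2f2, and of all 12685 genes compared, B130024G19Rik had the pattern nearest to that of Nr2f2, with a root mean square difference of 0.27 between log2 CPM centered on their means. Emx2os was at 30.2, 22.7, 16.9 and 46.2 CPM in the controls and at 38.2 and 33.4 CPM in the libraries labelled Foxp1cKO. Its extremes were those of Emx2, and the log2 ratio of Emx2os to Emx2 ranged over 0.59 where Emx2 itself ranged over 1.51. Dmrta2os was at 6.46, 4.99, 2.58 and 7.14 CPM in the controls and at 4.09 and 3.85 CPM in the libraries labelled Foxp1cKO. It shared the highest and lowest library with Dmrta2. A830082K12Rik, at the Nr2f1 locus, ran from 50.3 (Foxp1cKO 2) to 78.9 CPM (control 3), and like Nr2f1 it was highest in control 3. Gm27197, at the Lhx2 locus, was highest in control 1 (1.92 CPM) and lowest in Foxp1cKO 1 (0.76 CPM), unlike Lhx2. Likewise 3110006O06Rik, near Nr2f1, was highest in control 1 (2.34 CPM) and lowest in Foxp1cKO 2 (0.47 CPM), unlike Nr2f1. The share of all genes with the same extreme libraries as a member was not counted.

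None of the 9 genes within 10 kb of a member was called (adjusted p from 0.41 to 0.972). They also include the coding genes Sfxn5, near Emx1, and Dmrt1, near Dmrt3. Sfxn5 (69.5, 58.3, 42.7 and 84.5 CPM in the controls, 60.5 and 64.2 CPM in the libraries labelled Foxp1cKO) shared the highest and lowest library with Emx1. Annotated exons of an opposite-strand gene cover 8.79% of the exon bases of Emx2, 7.46% of those of Nr2f2 and 2.42% of those of Nr2f1, and 0% for the other 5. The strand setting of the counting is not given in the sources used here. Where strand was ignored, reads of these stretches cannot be assigned to one gene of the pair. Between the paralogues the longest run of shared transcript sequence was 14 bases for Emx1 and Emx2, 24 for Dmrta2 and Dmrt3 and 59 for Nr2f1 and Nr2f2, each shorter than a read.

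**Figure D5:**
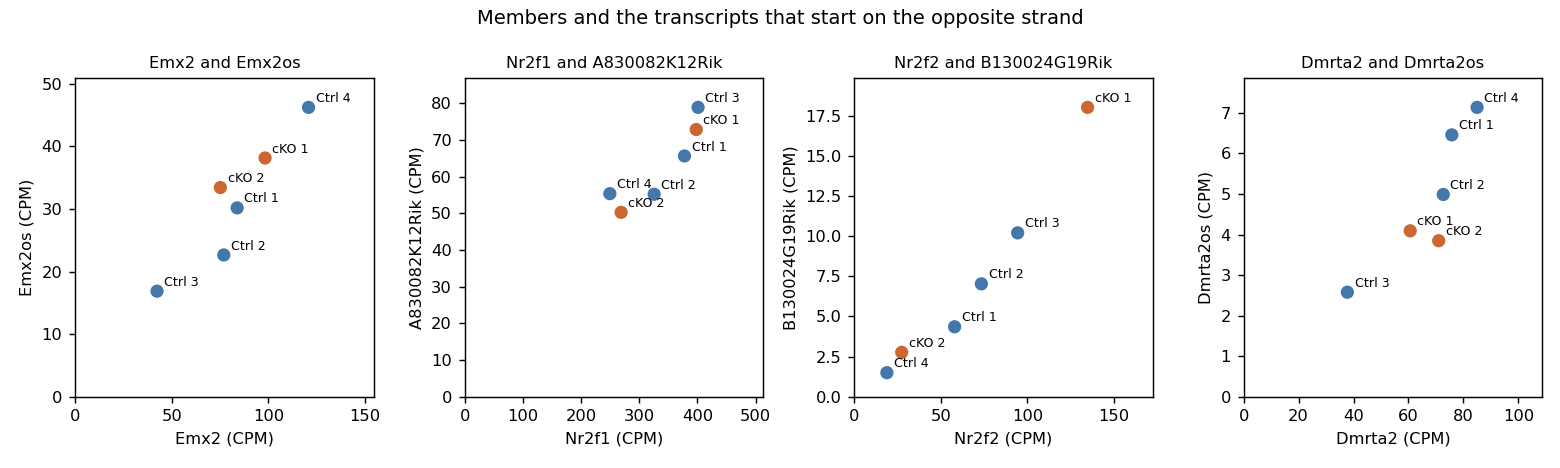
Level of 4 members (x axes, CPM) against the noncoding transcript that starts on the opposite strand (y axes, CPM), with 1 labelled point per library, blue for controls and orange for Foxp1cKO. The pair at the Nr2f2 locus spans the widest range, with Foxp1cKO 1 at the top and control 4 at the bottom for both genes.

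The genes nearest in pattern to the other members were mostly outside the area patterning list. They were Tpbg for Emx1 (root mean square difference 0.063), Gm6548 for Emx2 (0.091), Ovgp1 for Nr2f1 (0.069), Greb1 for Sp8 (0.10), Itpkb for Dmrta2 (0.068), Tnfrsf19 for Dmrt3 (0.063) and Orc1 for Lhx2 (0.049), each over 6 libraries. Emx1 was the gene second nearest to Dmrta2 (0.088). These patterns describe these libraries only.

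The signals that position the members were examined as a list of 28 genes (Fgf, Wnt, Bmp and Shh pathway genes and their feedback), of which 26 were in the table. None passed the test. The number with an unadjusted p under 0.05 was 5 of 26, where 13% of all genes passed, 14 were higher and 12 lower, and the median log2 fold change was 0.097. The fibroblast growth factor receptor Fgfr2 was at 198, 183, 205 and 203 CPM in the controls and at 270 and 247 CPM in the libraries labelled Foxp1cKO. Both were above every control, and 5 of the 26 genes lay outside the control range, against 24.6% of all genes. Fgfr2 had a log2 fold change of 0.39 (SE 0.0798, adjusted p = 0.225 by edgeR and 0.00343 by DESeq2). Gli3, which encodes the Shh pathway repressor required for dorsal identity, was at 256, 283, 213 and 327 CPM in the controls and at 391 and 327 CPM in the libraries labelled Foxp1cKO, with a log2 fold change of 0.41 (SE 0.167, adjusted p = 0.37). Of the rest of the 5, Fgfr1 had a log2 fold change of 0.22 (adjusted p = 0.368). Rspo2, which amplifies Wnt signaling, had one of -1.91 (adjusted p = 0.332) and the ligand Wnt5a one of -0.50 (adjusted p = 0.354), with both libraries labelled Foxp1cKO below every control for each. Rspo2 was low throughout, at 0.33 (control 3) to 1.69 CPM (control 2) in the controls and at 0.26 and 0.24 CPM in the libraries labelled Foxp1cKO. It also belongs to the hem and choroid plexus markers. Fgf17, a rostral ligand, was at 7.77 CPM in control 2 and at 0.34 to 0.56 CPM in the other 5 libraries, and Fgf15 had the largest positive log2 fold change, 0.72 (adjusted p = 0.535). The rostral signal Fgf8 was not analysed here.

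The 22 other pallial transcription factors included 0 that passed, 1 with an unadjusted p under 0.05 (13% of all genes), 3 with both libraries labelled Foxp1cKO outside the control range (24.6% of all genes) and a median log2 fold change of 0.11. Pax6, the rostrolateral counterpart of Emx2, was at 215, 236, 171 and 245 CPM in the controls and at 235 and 239 CPM in the libraries labelled Foxp1cKO (log2 fold change 0.13, SE 0.143, adjusted p = 0.741). It too was highest in control 4 and lowest in control 3. Rorb, a factor of layer 4 in sensory areas, was the gene at an unadjusted p of 0.0493, with 12.3 to 22.8 CPM in the controls and 27.0 and 22.8 CPM in the libraries labelled Foxp1cKO (adjusted p = 0.382). Fezf1 was at 27.6 CPM in Foxp1cKO 1 and at 1.81 to 8.11 CPM elsewhere.

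Genes that areal factors are known to regulate, cadherins, ephrins and other guidance genes, were represented by 21 genes, and a pair of older symbols in the list was not matched. None passed, 2 had an unadjusted p under 0.05 (13% of all genes) and lay outside the control range (24.6%), and the median log2 fold change was 0.070. Cdh6, a cadherin with areal borders, was at 54.1, 81.0, 83.9 and 68.4 CPM in the controls and at 115 and 101 CPM in the libraries labelled Foxp1cKO. Both exceeded every control, with a log2 fold change of 0.59 (SE 0.174, adjusted p = 0.286), and Tenm3, a teneurin of visual areas, was the second (adjusted p = 0.368). Id2 had the largest negative value (-0.50, adjusted p = 0.474).

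Of 30 paralogues of the members, 25 were in the table, 0 passed, 1 had an unadjusted p under 0.05 (13% of all genes) and 3 lay outside the control range (24.6%), with a median log2 fold change of 0.070. That gene was Nr2c1, an orphan nuclear receptor, at 20.7 to 23.1 CPM in the controls and at 32.1 and 26.8 CPM in the libraries labelled Foxp1cKO (log2 fold change 0.44, SE 0.104, adjusted p = 0.242 by edgeR and 0.0152 by DESeq2). Lhx8, a marker of the ventral telencephalon, was at 11.6 CPM in control 3 and at 0.032 to 0.74 CPM in the other 5 libraries, and Lhx5 had the largest positive log2 fold change, 0.54 (adjusted p = 0.451).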

How the data were processed

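The authors prepared stranded libraries from E12.5 lateral cortex, aligned paired-end reads to mm10 with STAR and counted them on genes with HTSeq 0.9.1 in union mode, removing genes with low counts. The deposited counts are whole and unnormalized. The deposited VST values, on a log2-like scale, equal DESeq2's blind transformation of the counts and served as an alternative. Groups came from the sample labels. The litter, a term in the authors' DESeq2 model, was not used here.

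In R 4.3.3, edgeR 4.0.16's quasi-likelihood test (TMM, group alone, all 17068 genes, Benjamini-Hochberg adjustment, threshold 0.05) was used, with log2 CPM at a prior count of 2. DESeq2 1.42.0, limma 3.58.1 on VST values, other scalings, a filter of 1 CPM in 2 libraries, each library left out and a replicate block were alternatives. Totals were 50076008 to 78346979 counts, at which 3 counts are 0.0381 to 0.0596 CPM. Chi-square per gene was 25.9 to 193 between controls and 31.4 between the libraries labelled Foxp1cKO, so no pair within a group was a duplicate. Pairs across the groups were not compared. The labels do not give the litter of an embryo. The p-values set the group difference against the spread between these samples, and litter can be part of both. Positions came from GENCODE M21, in which 17047 of the identifiers were found, and promoters from RefSeq.

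The members and lists were chosen with earlier results of these data known. Named genes are the members, Foxp1, Pax6, Gli3, genes within 10 kb of a member, the largest change in each direction per companion list, and the genes nearest in pattern to each member. The genes at an unadjusted p under 0.05, Nkx2-1, Tbr1, Rspo1 and the single radial glia and antihem markers were named after their values were seen. Fgf8 and Wnt3a, 2 of the 28 signal genes, were not analysed here. Certain genes that the rule names are left out of the text.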

Additional observations from a re-analysis of the deposited data

Results flagged for a closer look

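Of 48 values examined over the 4 controls, 4 had 1 control separated from the other controls by more than Dixon's 95% critical value for 4 samples, where chance gives about 5%. None was a member, a neighbor of a member or a ratio between members. Control 2 was far above the other controls in Fgf17 (7.77 CPM, gap of 0.975 of the range). Control 3 was far above them in Lhx8 (11.6 CPM, 0.981) and in the summed markers of the antihem, the signaling center at the pallial border (154 CPM against 117 to 122 CPM, 0.875). The antihem sum was at 166 CPM in both libraries labelled Foxp1cKO, above every control. It was carried mostly by Nrg1, at 118 CPM in control 3 and at 121 and 130 CPM in the libraries labelled Foxp1cKO. Among the controls, Dbx1 and Fgf7 were also highest in control 3, but Sfrp2 and Tgfa were highest in control 2. Control 4 was far above the other controls in the summed red cell markers (3429 CPM, 0.852).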

How the results depend on the processing

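No member passed the threshold under any of 13 other settings (104 combinations of member and setting, smallest adjusted p = 0.278, Dmrta2 without control 3), nor with controls 3 and 4 both left out, a setting chosen after seeing the data. The sign of the log2 fold change turned in 20 of the 104, 15 of them with 1 library left out. With 1 library left out in turn, the log2 fold change ran from -0.19 to 0.12 for Emx1, -0.13 to 0.36 for Emx2, -0.33 to 0.21 for Nr2f1, -1.16 to 1.12 for Nr2f2, 0.013 to 0.37 for Sp8, -0.25 to 0.086 for Dmrta2, -0.15 to 0.44 for Dmrt3 and -0.23 to 0.18 for Lhx2. With limma it was 0.030 for Emx1, 0.016 for Dmrta2 and 0.036 for Lhx2, and with total counts it was 0.0053 for Emx1. The cause was not tested.

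Over all genes, 26 calls became 507 with DESeq2, 63 without controls 3 and 4, and 2 to 96 with 1 library left out (96 without control 4, 2 without control 2). DESeq2 called 1 of the 26 signal genes and 1 of the 25 paralogues in the table, where it called 3.36% of all genes it tested. The replicate block gave 0 calls over all genes and turned Nr2f2 to -0.092 (adjusted p = 0.956). Same-numbered libraries deviated from their group means with correlations of -0.20 and 0.016. With 2 libraries in 1 group, the crossed pairs give the same values with the other sign (0.20 and -0.016). These correlations therefore cannot show whether the numbers pair embryos. The labels state no pairing, and the main model assumed none.

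The level order kept 6 of 8 places with the longest transcript and 6 to 8 with 1 control left out. With 1 library left out, the log2 ratio difference ran from -0.46 to 0.16 for Emx1 to Emx2 and from -1.10 to 0.63 for Nr2f1 to Nr2f2. With 2 libraries in 1 group, the spread between embryos and not depth limits these comparisons.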
